A study of Mus musculus with 24 samples.

Results

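The unfolded protein response and the integrated stress response were followed through 33 genes in the liver of mice that had received extracellular vesicles (EVs, membrane particles shed by cells). The genes were taken by symbol from a table of 23240 gene rows: 11 chaperones and cochaperones of the endoplasmic reticulum (ER), 4 disulfide isomerases, 7 genes of ER-associated degradation, 3 genes of the IRE1 and ATF6 arms, and 8 genes of the PERK-ATF4 arm. Of these, 32 passed the filter on low counts among 13773 genes tested. Asns, the asparagine synthetase gene that ATF4 is known to drive, did not pass, with 1 to 9 counts per library.

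The samples were livers of female NSG mice, 8 weeks old by the labels, a strain that lacks mature T, B and NK cells. Over 5 weeks they had 2 tail vein injections a week, and livers were collected 2 days after the final one. Of the 4 groups of 6 libraries, PBS received saline, and the others about 10 µg of EVs at each injection. MCF10A EV received vesicles of MCF10A, a non-tumorigenic human breast epithelial line. Another group carries the label MCF10A/miR-122 EV, and the last the label MDA-MB-231 EV, after a human breast cancer line. The library names of these last 2 groups carry each other's vesicle source. The groups are called here by their labels, and if the library names were right, their values would change places. No label ties libraries to separate mice in so many words, so p-values measure the spread between these libraries, which may in part be technical.

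Proteins that enter the secretory pathway fold in the ER. When unfolded protein accumulates there, 3 sensors in the ER membrane respond. IRE1 (Ern1) splices the mRNA of the transcription factor XBP1, ATF6 is cut to release a transcription factor, and PERK (Eif2ak3) phosphorylates the translation factor eIF2alpha. The first pair is known to raise chaperones, isomerases and degradation factors, while eIF2alpha phosphorylation slows translation in general and favours that of ATF4, whose targets include Atf5, Ddit3 (CHOP), Trib3, Chac1 and Asns. The last arm is also called the integrated stress response, since other kinases feed into it. The hepatocyte secretes most plasma proteins and has an extensive ER.

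Many of these genes are known to carry the ER stress response element, ERSE, in the promoter. It was searched as CCAAT, any 9 bases, then CCACG, on both strands of the 250 bases before each gene's start in RefSeq promoters of GRCm38.p6. Of 32851 promoters, 37 (0.113%) held it. Promoters were found for 29 of the 33 genes, 31 in all, and 9 of them held it, 1 each for 9 genes. Hsp90b1 had 2 matches. The matches are shown because some chaperone, isomerase and degradation genes of the list held them, while most genes with a promoter did not. The list is of known response genes, so the share among them is no independent finding. The fixed letters are in capitals, and each match is written in the direction of the motif.
Hspa5: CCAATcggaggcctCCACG
Calr: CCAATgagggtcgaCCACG
Derl3: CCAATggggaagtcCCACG
Hsp90b1: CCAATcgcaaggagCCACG
Hsp90b1: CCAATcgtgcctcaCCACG
Canx: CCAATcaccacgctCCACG
Pdia6: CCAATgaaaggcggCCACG
Dnajc3: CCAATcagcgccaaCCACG
Creld2: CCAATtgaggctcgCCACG
Syvn1: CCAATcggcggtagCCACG
The related element ERSE-II (ATTGG, any 1 base, CCACG) was in 10 promoters (0.0304%), and Herpud1 was the one member with it. An amino acid response element of ATF4 type (TGATG, any 1 base, AA) was in 1134 promoters (3.45%), among them those of Asns, Chac1 and Herpud1. A match is only a run of letters in this window, and these motifs do not overlap each other in the promoters shown.

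The full 250 bases are given for 4 genes whose values carry the comparisons: Hspa5 (chr2:34771840-34772089, plus strand), Calr (chr8:84846932-84847181, minus strand), Creld2 (chr15:88819396-88819645, plus strand) and Herpud1 (chr8:94386179-94386428, plus strand), all upstream of the annotated start. They are written 5′ to 3′ along the gene, with the matches in capitals. A match on the other strand reads as its reverse complement, with CGTGG first in Calr and Creld2. In Herpud1 the first run of capitals is the amino acid response element on the other strand and the second is ERSE-II.
Hspa5: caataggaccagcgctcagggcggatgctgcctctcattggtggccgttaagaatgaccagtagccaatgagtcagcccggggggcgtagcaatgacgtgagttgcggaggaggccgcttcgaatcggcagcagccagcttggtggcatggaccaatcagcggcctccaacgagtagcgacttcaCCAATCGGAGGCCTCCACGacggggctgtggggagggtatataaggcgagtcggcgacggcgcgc
Calr: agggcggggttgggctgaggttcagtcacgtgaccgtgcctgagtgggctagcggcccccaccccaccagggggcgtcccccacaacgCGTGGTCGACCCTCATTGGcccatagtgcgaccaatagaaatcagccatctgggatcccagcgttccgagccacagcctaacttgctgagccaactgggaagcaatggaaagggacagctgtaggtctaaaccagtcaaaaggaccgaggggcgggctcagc
Creld2: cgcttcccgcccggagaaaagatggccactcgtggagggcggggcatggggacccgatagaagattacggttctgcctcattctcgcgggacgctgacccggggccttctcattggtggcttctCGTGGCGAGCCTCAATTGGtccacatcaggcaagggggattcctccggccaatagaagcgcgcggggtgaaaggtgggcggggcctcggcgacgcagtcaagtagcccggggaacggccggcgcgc
Herpud1: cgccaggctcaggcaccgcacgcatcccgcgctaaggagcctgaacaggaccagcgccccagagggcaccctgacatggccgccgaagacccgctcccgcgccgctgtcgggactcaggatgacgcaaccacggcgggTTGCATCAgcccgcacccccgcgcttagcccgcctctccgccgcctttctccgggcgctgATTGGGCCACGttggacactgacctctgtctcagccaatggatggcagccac
For the MCF10A/miR-122-labelled group against MCF10A EV, where 8.71% of all genes fell, 5 of the 9 members with an ERSE match fell, as did 6 of the 19 tested members whose promoter had none, and 1 of those 19 rose. In MCF10A EV against PBS, 1 of the 9 and 0 of the 19 were called, where 1.07% of all genes were. Without PBS replicate 5 it was 5 of the 9 and 4 of the 19, all higher, where 2.53% of all genes were higher. In the MDA-MB-231-labelled group against MCF10A EV, 1 of the 9 was called, where 7.68% of all genes were. None of the 9 was called in the remaining comparisons with all libraries. There, the share of all genes was 17.9% for the MCF10A/miR-122-labelled group against PBS. It was 11.7% for the MDA-MB-231-labelled group against PBS and 0.254% between these 2 groups. In these 4 comparisons 0 to 5 of the 19 were called. Members with and without a match were not compared by a test.

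The libraries held 21336818 to 33732639 counts. They are described here as 2 sets of 12 that did not mix groups. These were PBS with MCF10A EV (21336818 to 29268884 counts), and the other 2 groups (26819650 to 33732639 counts). The totals overlapped, and neither labels nor library names give such sets. The sets are told apart here by expression in these same data, through a single gene. Serpina3a, a serpin gene that is no member, was at 109.6 to 325.4 CPM (counts-per-million on TMM-scaled library sizes) in the first set and at 0.285 to 5.85 CPM in the second. Whether treatment or another difference between the sets gave this gap was not tested, and a comparison across sets cannot tell them apart. Only MCF10A EV against PBS and the MDA-MB-231-labelled group against the MCF10A/miR-122-labelled one lay within a set. The 11 hepatocyte marker rows used summed to 122163 to 168829 CPM, and Pou2af1 (B lineage) and Ncr1 (NK cells) had no count in any library. In bulk tissue, fewer cells of a type and less RNA per cell cannot be told apart.

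Most chaperones and isomerases were highest in MCF10A EV and in 1 PBS library, Herpud1 was highest in the groups of the second set, Atf5 was lowest there, and Atf4 itself had nearly the same level everywhere. A gene was called where the adjusted p of edgeR's quasi-likelihood test was under 0.05, and log2 fold changes are given with their standard errors (SE). By this rule 17 of the 32 tested members were called in at least 1 of 6 comparisons. The same share over all genes was not computed, and single comparisons called 0.254% to 17.9% of all genes.

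**Figure D1:**
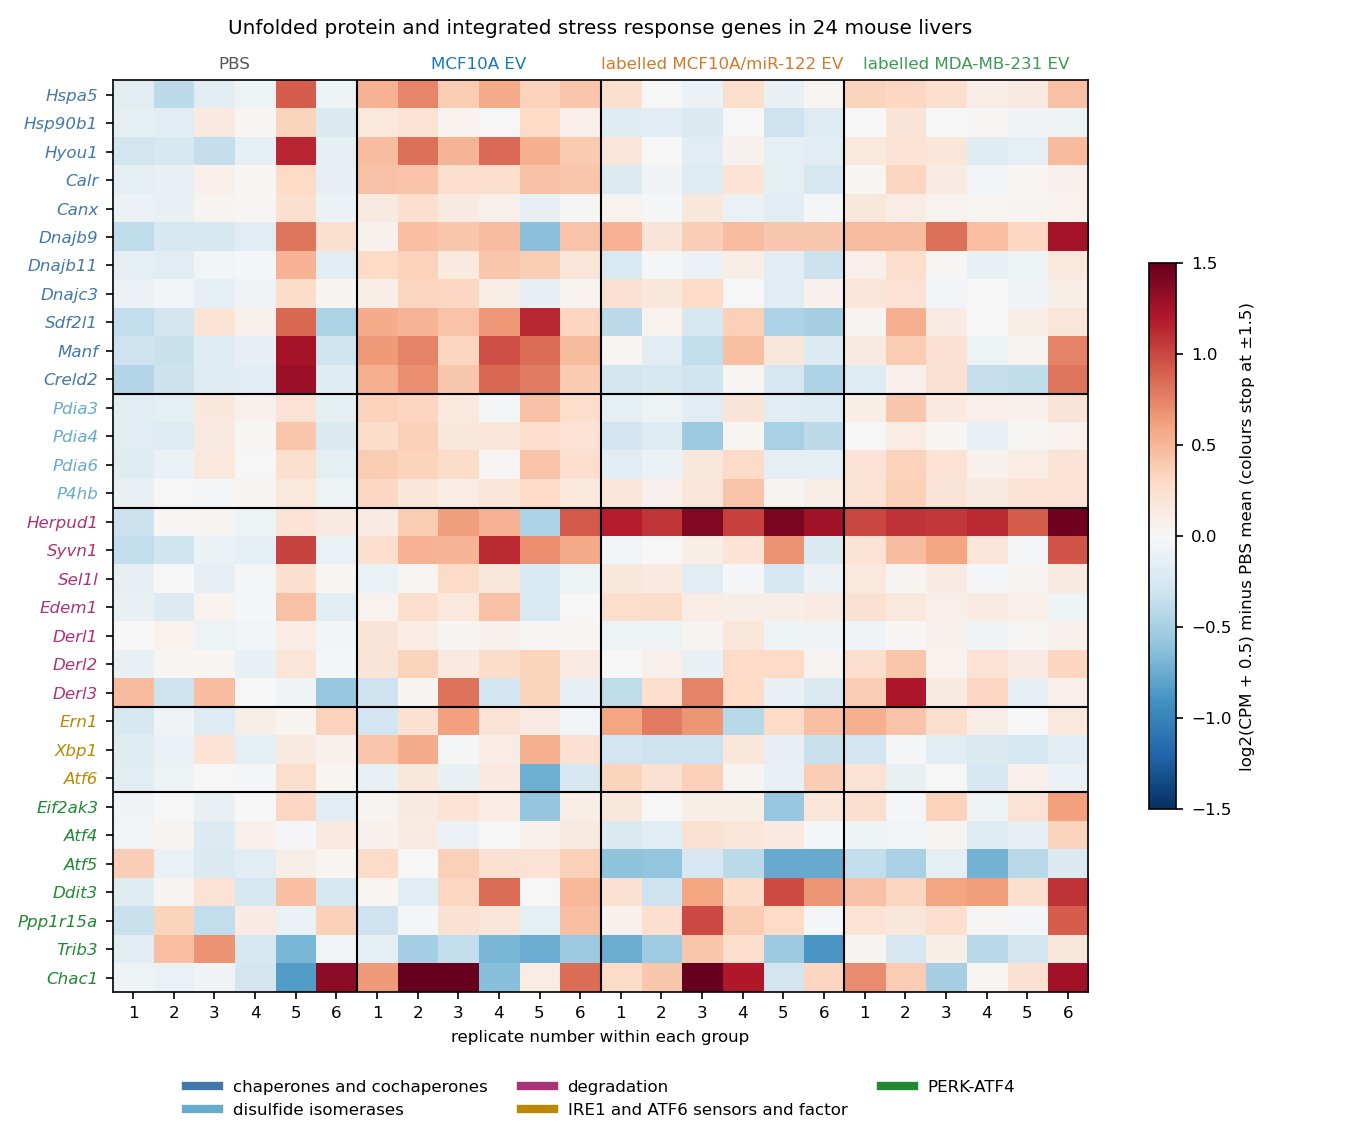
Log2(CPM + 0.5) of the 32 tested genes (rows, grouped and coloured by arm) in 24 libraries (columns, by group and replicate number), relative to the mean of the 6 PBS libraries, with colours ending at a difference of 1.5. The row of Herpud1 is darkest in the groups of the second set, and PBS replicate 5 is the highest PBS library for 24 of the 32 genes. The share over all genes was not computed.

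Among the chaperones, Hspa5 (BiP), the main Hsp70 of the ER and the regulator that holds the 3 sensors inactive, was at 413.0 to 1018 CPM in PBS (median 498.5). It was at 693 to 907 CPM in MCF10A EV (median 754), at 502 to 651 CPM in the MCF10A/miR-122-labelled group (median 548) and at 582 to 738 CPM in the MDA-MB-231-labelled one (median 659.8). PBS replicate 5 alone made the PBS range overlap with MCF10A EV, since the other 5 PBS libraries lay at 413.0 to 515 CPM. Calr (calreticulin), a lectin chaperone that folds glycoproteins and buffers calcium, was at 571 to 781 CPM in PBS (median 612.5), at 759 to 859 CPM in MCF10A EV (median 846.5), at 535 to 729.9 CPM in the MCF10A/miR-122-labelled group (median 564) and at 617 to 793.5 CPM in the MDA-MB-231-labelled one (median 657). All 6 MCF10A EV libraries lay above 5 of the 6 PBS libraries and above every MCF10A/miR-122-labelled library. Creld2, a secreted ER protein with disulfide isomerase activity, was at 21.7 to 72.9 CPM in PBS (median 26), at 39.1 to 54.2 CPM in MCF10A EV (median 45.7), at 21.4 to 29.9 CPM in the MCF10A/miR-122-labelled group (median 24.6) and at 22.5 to 52 CPM in the MDA-MB-231-labelled one (median 28.5). The 72.9 CPM was again PBS replicate 5, and the other PBS libraries did not pass 26.4 CPM.

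Manf, a secreted factor that holds BiP with its clients, was at 78.4 ± 45.1 CPM in PBS (mean ± SD, n = 6), 114.9 ± 18.8 in MCF10A EV, 72.0 ± 15.6 in the MCF10A/miR-122-labelled group and 86.1 ± 18.6 in the MDA-MB-231-labelled one. Hyou1, an Hsp110-type exchange factor of BiP, was at 127.4 ± 65.7, 179.7 ± 24.9, 115.3 ± 12 and 129.6 ± 21.9 CPM in the same order. In both genes the large PBS SD came from replicate 5, without which PBS was at 60.1 ± 3.84 CPM for Manf and 100.6 ± 6.98 CPM for Hyou1 (n = 5). Sdf2l1, a BiP cochaperone, was at 23.0 ± 9.04 CPM in PBS, 33.8 ± 7.52 in MCF10A EV, 19.4 ± 4.99 in the MCF10A/miR-122-labelled group and 24.6 ± 3.67 in the MDA-MB-231-labelled one. Dnajb11, a J protein that delivers clients to BiP, was at 78.6 ± 16.3, 95.5 ± 7.35, 71.6 ± 7.43 and 80.7 ± 8.09 CPM in that order.

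Hsp90b1 (GRP94), the Hsp90 of the ER, was at 796.0 ± 120.7 CPM in PBS, 864.9 ± 67.8 in MCF10A EV, 698 ± 48.7 in the MCF10A/miR-122-labelled group and 797 ± 54.3 in the MDA-MB-231-labelled one. Dnajb9 (ERdj4), a J protein that represses IRE1 through BiP, ran differently, at 36.0 ± 13.0, 40.9 ± 10.2, 45.3 ± 3.44 and 54.9 ± 15.0 CPM in that order. Canx (calnexin), the membrane-bound partner of calreticulin, and Dnajc3 (p58IPK), a BiP cochaperone, were called in no comparison, with group means of 300.1 to 321.8 CPM and 190.8 to 208 CPM. So the soluble chaperone Calr was called and its membrane homologue was not. The difference between these genes was not tested.

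**Figure D2:**
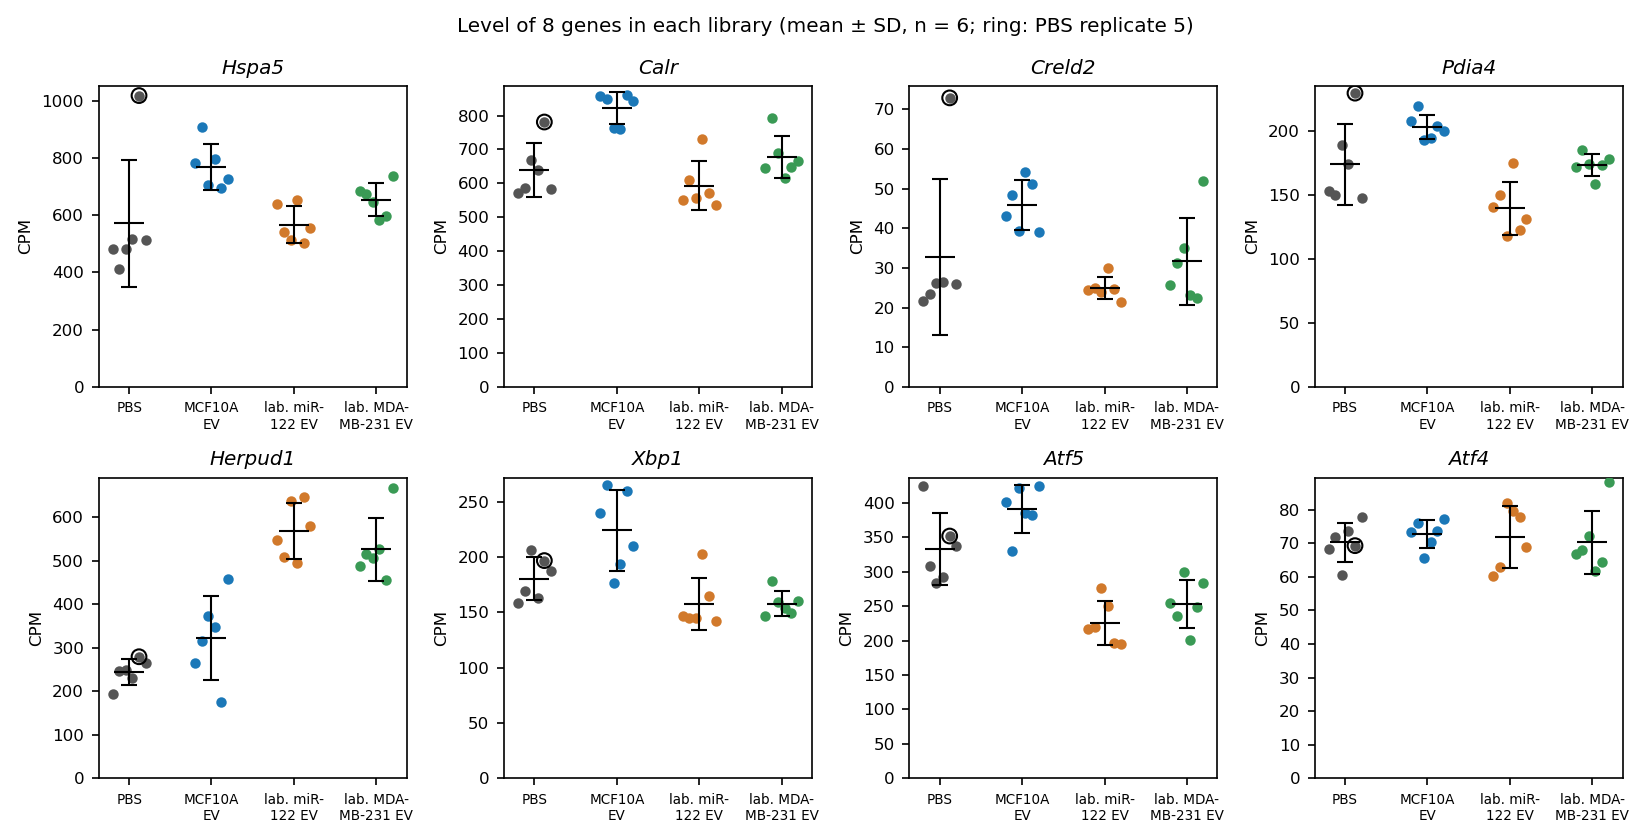
CPM of 8 genes in each library (points), with the mean and SD of 6 libraries per group, and PBS replicate 5 ringed. For Hspa5 and Creld2 the ringed library lies far above the other PBS libraries, while for Herpud1 it is the highest PBS library by a small margin and for Atf5 it lies among them. Every library of the second set is above every PBS library for Herpud1.

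The disulfide isomerases, which form and rearrange disulfide bonds, split into 3 genes whose group mean was highest in MCF10A EV and 1 whose was not. Pdia4 (ERp72) was at 147 to 229.7 CPM in PBS (median 164), at 193 to 219.8 CPM in MCF10A EV (median 202), at 118 to 175 CPM in the MCF10A/miR-122-labelled group (median 136) and at 159 to 185 CPM in the MDA-MB-231-labelled one (median 174). MCF10A EV did not overlap with either group of the second set. Pdia3 (ERp57), the isomerase that works with calreticulin and calnexin, was at 400.1 ± 48.7 CPM in PBS, 475 ± 52.7 in MCF10A EV, 375 ± 40.8 in the MCF10A/miR-122-labelled group and 446 ± 41.9 in the MDA-MB-231-labelled one. Pdia6 was at 264 ± 31.3, 320.2 ± 30.6, 262 ± 36.3 and 301 ± 19.9 CPM in that order. P4hb (PDI), also a subunit of prolyl 4-hydroxylase, was lowest in PBS, at 1087 ± 71.0 CPM, against 1249.9 ± 68.4, 1221 ± 124.0 and 1267 ± 67.0 CPM in the 3 EV groups.

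Degradation was led by Herpud1, a membrane protein that assembles the HRD1 ubiquitin ligase complex. It was at 193 to 279 CPM in PBS (median 248), at 174 to 457 CPM in MCF10A EV (median 331), at 494 to 647 CPM in the MCF10A/miR-122-labelled group (median 563) and at 455.5 to 666.5 CPM in the MDA-MB-231-labelled one (median 510.1). Both groups of the second set lay wholly above PBS. The MCF10A/miR-122-labelled group also lay wholly above MCF10A EV, whereas the lowest MDA-MB-231-labelled library was just under the highest MCF10A EV library.

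The ligase itself, Syvn1 (HRD1), was at 83.0 ± 37.0 CPM in PBS, 121.8 ± 26.2 in MCF10A EV, 86.6 ± 20.2 in the MCF10A/miR-122-labelled group and 105.6 ± 26.5 in the MDA-MB-231-labelled one, and with all libraries it was called in no comparison. Derl2, a channel protein of the same complex, was at 92.7 ± 7.15, 108.9 ± 6.95, 99.6 ± 11.4 and 108.9 ± 10.0 CPM in that order. Sel1l, the adaptor of HRD1, Edem1, a lectin that hands over misfolded glycoproteins, Derl1 and Derl3 were called in no comparison. Their group means were 125.5 to 135 CPM for Sel1l, 175 to 194 CPM for Edem1, 97.7 to 103.8 CPM for Derl1 and 0.786 to 1.14 CPM for Derl3. With all libraries, Herpud1 thus moved in the second set without its complex partners passing the threshold beside it, except Derl2 in 1 comparison. Without PBS replicate 5, Syvn1 passed as well in the MDA-MB-231-labelled group against PBS.

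Xbp1, the transcription factor that IRE1 activates, was at 159 to 207 CPM in PBS (median 179), at 176 to 265.5 CPM in MCF10A EV (median 225), at 143 to 203 CPM in the MCF10A/miR-122-labelled group (median 146) and at 147 to 178 CPM in the MDA-MB-231-labelled one (median 157). All of these ranges overlapped. The sensors Ern1 (28.6 to 38.6 CPM as group means) and Atf6 (36.9 to 46.6 CPM) were called in no comparison. Gene counts do not separate spliced from unspliced Xbp1, and the cleavage of ATF6 and the phosphorylation of PERK and eIF2alpha were not measured.

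In the PERK-ATF4 arm, Atf4 was at 60.7 to 77.7 CPM in PBS (median 70.7), 65.6 to 77.2 CPM in MCF10A EV (median 73.4), 60.2 to 82.0 CPM in the MCF10A/miR-122-labelled group (median 73.3) and 61.8 to 88.2 CPM in the MDA-MB-231-labelled one (median 67.5). The groups overlapped throughout. Its log2 fold changes over the 6 comparisons lay between -0.05 and 0.05, each with an SE near 0.087. ATF4 is controlled largely at translation, which mRNA counts do not show.

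Atf5, a related transcription factor that is abundant in hepatocytes, moved where Atf4 did not. It was at 284.0 to 425 CPM in PBS (median 323), 331 to 425 CPM in MCF10A EV (median 394), 195 to 277 CPM in the MCF10A/miR-122-labelled group (median 218) and 201 to 299 CPM in the MDA-MB-231-labelled one (median 251.5). The MCF10A/miR-122-labelled group lay below both groups of the first set, and the MDA-MB-231-labelled one lay below MCF10A EV and overlapped with PBS. The exons of Atf5 overlap those of Il4i1 and Nup62 on the opposite strand in the GENCODE M21 annotation, and the strand setting of the counting is not given in the sources used here, so its counts are uncertain to that extent.

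The remaining genes of the arm were called in no comparison with all libraries. Group means were 11.2 to 13.3 CPM for Eif2ak3 (PERK), 5.43 to 8.21 CPM for Ddit3 (CHOP, a factor of ER stress-induced cell death), 13.1 to 16.7 CPM for Ppp1r15a (GADD34, which leads the phosphatase back to eIF2alpha), 9.90 to 14.8 CPM for Trib3, a pseudokinase, and 2.36 to 4.07 CPM for Chac1, a glutathione-degrading enzyme. Asns stayed at 0.144 to 0.192 CPM. Ddit3, Ppp1r15a and Eif2ak3 also have exons that overlap with opposite-strand genes, as do Manf, Hsp90b1, Dnajb9, Pdia3, Pdia6, Syvn1 and Derl2 of the other arms. Their counts are uncertain in the same way. Exons of Manf (with Rbm15b), Hsp90b1 (with Gm15344 and Gm25745) and Pdia4 (with Mir704) overlap on the same strand, which no strand setting would resolve. Dnajb9 shares 10.5% of its 32-base stretches with other genes, most with Gm6568. Derl1 shares 8.39%, most with Gm35638, and Hsp90b1 4.01%, most with Gm25745, so reads could be split there too.

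**Figure D3:**
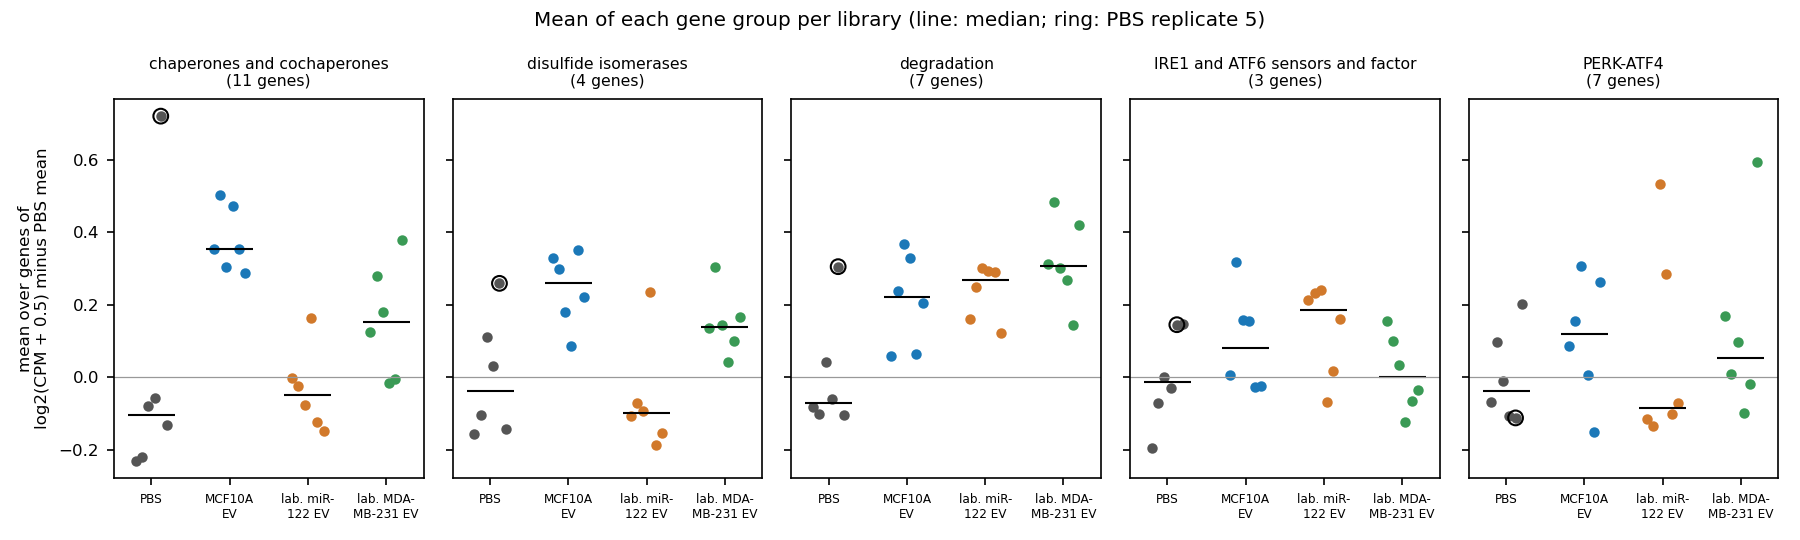
For each library, the mean over the tested genes of each arm of log2(CPM + 0.5) minus the PBS mean, with the median of each group as a line and PBS replicate 5 ringed. MCF10A EV lies at 0.29 to 0.50 for the chaperones, above the other PBS libraries and above every MCF10A/miR-122-labelled library, while the PERK-ATF4 groups overlap.

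Read arm by arm, the mean log2 difference of the 11 chaperones from the PBS mean was 0.29 to 0.50 in MCF10A EV libraries (median 0.35), -0.15 to 0.16 in the MCF10A/miR-122-labelled group (median -0.05) and -0.02 to 0.38 in the MDA-MB-231-labelled one (median 0.15). PBS libraries lay at -0.23 to 0.72 (median -0.10), with replicate 5 at the top. For the 7 degradation genes the group medians were -0.07 in PBS, 0.22 in MCF10A EV, 0.27 in the MCF10A/miR-122-labelled group and 0.31 in the MDA-MB-231-labelled one. For the 7 tested PERK-ATF4 genes they were -0.04, 0.12, -0.09 and 0.05 in that order, and the groups overlapped. These means describe the libraries and were not tested. Herpud1 weighed on the degradation means. On the same scale it lay at 1.03 to 1.42 in the MCF10A/miR-122-labelled libraries and at 0.91 to 1.46 in the MDA-MB-231-labelled ones. The means without it were not computed. Gene by gene, the median log2 fold change of the 7 degradation genes against MCF10A EV was -0.05 and 0.00 in these groups.

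MCF10A EV against PBS asks what vesicles of the non-tumorigenic line do, and lies within a library set. Calr was the only member called, at 0.37 ± 0.09 (log2, SE) higher in MCF10A EV with an adjusted p of 0.0383 (higher than the PBS median in 6 of 6 libraries). Of all genes tested, 1.07% were called. The Calr call held in 2 of 12 fits that left out a library, those without PBS replicate 5 or MCF10A EV replicate 3. The fold changes of the other members mostly had the same sign: 30 of 32 were positive, and the median was 0.23 against 0.01 for all genes tested. At an unadjusted p under 0.05 stood 16 members with a positive and 1 with a negative fold change, against 1233 and 1150 of the 13773 genes tested.

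This comparison turned on 1 library. PBS replicate 5 was the highest of the 6 PBS libraries for 24 of the 32 tested members, among them all 11 chaperones, all 4 isomerases and 6 of the 7 degradation genes, but only 2 of the 7 PERK-ATF4 genes. How often it was the highest over all genes was not computed. Leaving it out also moved the count over all genes, from 147 to 741, so its weight was not particular to the members. Without it, 11 members were called higher in MCF10A EV and 0 lower, where 5.36% of all genes tested were called and 2.53% were called higher. The library was singled out by its values in these same genes, and leaving it out lowers the PBS mean of most of them. The calls without it therefore describe how far the comparison hangs on 1 library and are no independent support. The 11 were 7 chaperones (Hyou1, Hspa5, Manf, Creld2, Calr, Dnajb11 and Sdf2l1), the isomerases Pdia4 and Pdia6, and Syvn1 and Derl2 of the degradation genes, and none belonged to the PERK-ATF4 or IRE1 and ATF6 genes.

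The largest of these differences were 0.93 ± 0.15 for Manf, 0.89 ± 0.16 for Creld2, 0.84 ± 0.17 for Syvn1 and 0.84 ± 0.11 for Hyou1 on the log2 scale. Their adjusted p values were 0.000536, 0.00227, 0.00508 and 0.000204. Hspa5 was 0.68 ± 0.09 higher (adjusted p = 0.00028), from 481 ± 41.5 CPM in 5 PBS libraries to 769 ± 79.4 CPM in 6 MCF10A EV libraries. The smallest were Derl2 at 0.27 ± 0.08 and Pdia4 at 0.32 ± 0.09. Pdia6 was called although its MCF10A EV libraries overlapped with the 5 PBS libraries. How often groups lay apart over all genes was not computed.

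**Figure D4:**
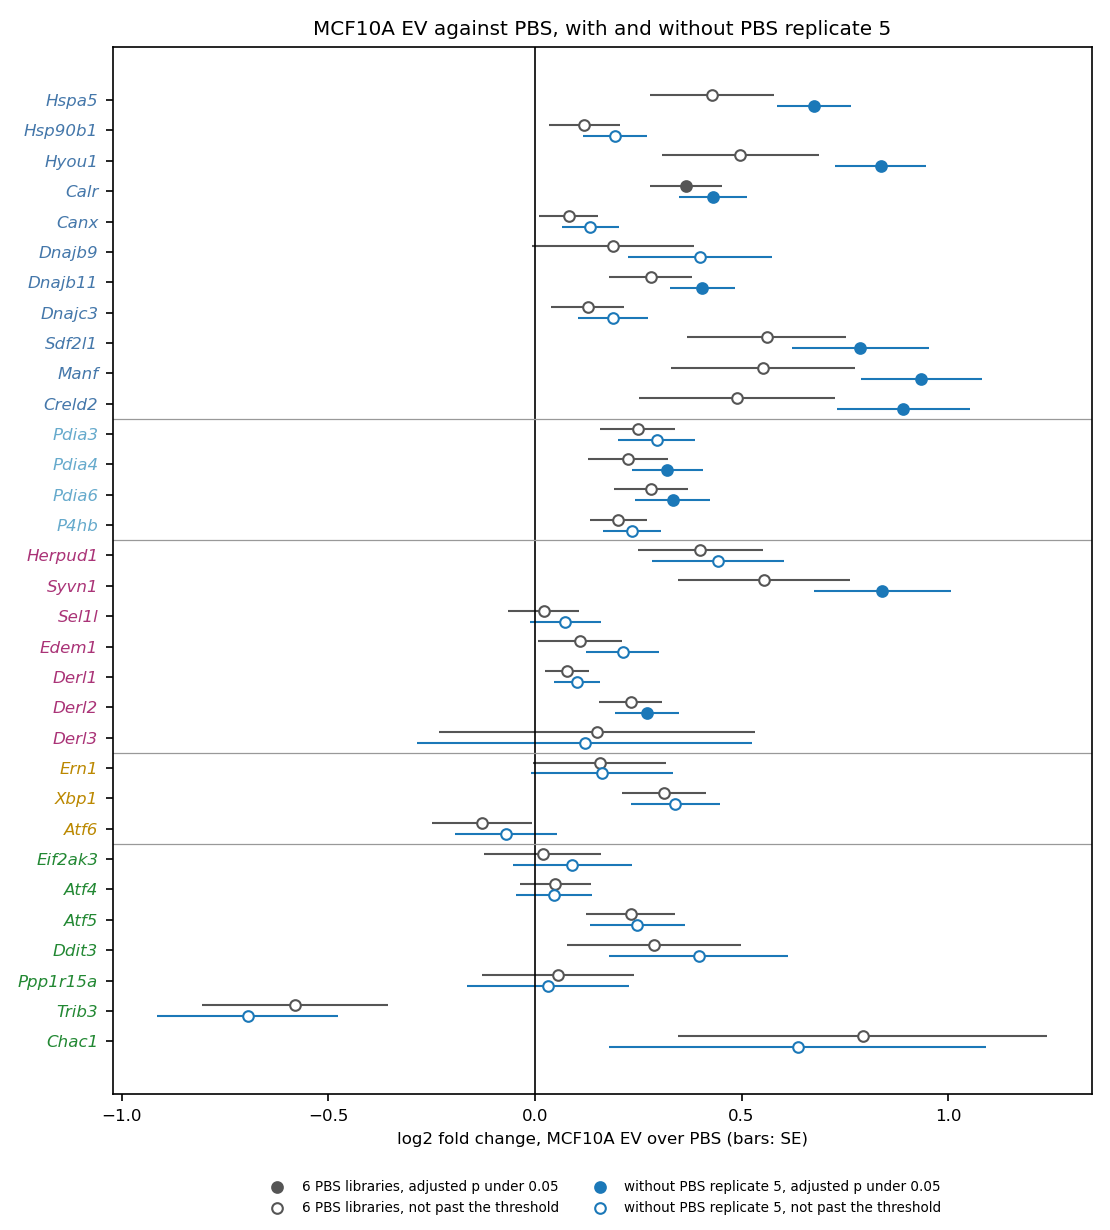
Log2 fold change of each tested gene, MCF10A EV over PBS, with its SE, for all 6 PBS libraries and without PBS replicate 5. Filled points have an adjusted p under 0.05. Only Calr is filled with all libraries, and 11 genes are filled without that library, none of them in the PERK-ATF4 rows. The library was singled out by its values in these genes.

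The same PBS library stood apart in clock genes. Npas2, a clock activator, was at 12.4 CPM in PBS replicate 5 and at 0.399 to 2.45 CPM in the other PBS libraries, and Dbp, a clock output gene, was at 3.57 CPM against 39.0 to 118.5 CPM. MCF10A EV libraries were at 1.72 to 12.1 CPM for Npas2 and 2.20 to 23.9 CPM for Dbp, and the second set at 0.0900 to 0.473 CPM and 71.7 to 149 CPM. PBS replicate 5 and the MCF10A EV libraries, which had high chaperone values, also had low Dbp. Npas2 in MCF10A EV overlapped with the other PBS libraries. The library of the second set with the highest chaperone mean is given beside these values. Replicate 6 of the MDA-MB-231-labelled group had a mean log2 chaperone difference from PBS of 0.38, within the MCF10A EV range of 0.29 to 0.50. Its group was at 0.191 to 0.473 CPM for Npas2 and at 79.7 to 127.5 CPM for Dbp. Of 14 clock genes tested, 3 fell in MCF10A EV against PBS (Cry2, Per3 and Dbp). Their part in the chaperone values was not tested, and the labels give no hour of collection. Hspa1a, a cytosolic heat shock gene, was at 38.3 CPM in PBS replicate 5 and at 2.58 to 15.8 CPM in the other PBS libraries.

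The MCF10A/miR-122-labelled group against PBS, a comparison across sets, gave 3 called members where 17.9% of all genes were called. Herpud1 rose by 1.22 ± 0.15 (adjusted p = 7.34e-06), Atf5 fell by 0.56 ± 0.11 (adjusted p = 0.000891), and Pdia4 fell by 0.32 ± 0.10 (adjusted p = 0.026). Herpud1 and Atf5 differed from PBS in 6 of 6 libraries with no overlap, and Pdia4 in 5 of 6 with overlap. For all genes, the share whose groups lay apart was not computed. The share called, 3 of 32, was below that of all genes. Without PBS replicate 5 the Pdia4 call was lost and Dnajb9 (0.55 ± 0.17) and P4hb (0.20 ± 0.07) were called higher, 4 members in all against 17.8% of all genes. In the comparison with all libraries, 7 of 11 macrophage markers rose, with their summed level at 326 to 760.3 CPM against 298 to 370.3 CPM in PBS, and their part in these values was not tested.

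The MDA-MB-231-labelled group against PBS, also across sets, gave 5 called members against 11.7% of all genes. Herpud1 rose by 1.11 ± 0.15 (adjusted p = 3.94e-05), Dnajb9 by 0.61 ± 0.20 (0.0422), Derl2 by 0.23 ± 0.08 (0.0462) and P4hb by 0.22 ± 0.07 (0.0371). Atf5 fell by 0.39 ± 0.11 (adjusted p = 0.0185). Of these 5, only Herpud1 did not overlap between the groups. The share of all genes whose groups lay apart was not computed. Without any single library other than MDA-MB-231 EV replicate 5 or PBS replicate 5, the count was 1 to 3.

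Here too PBS replicate 5, singled out by its values in these genes, weighed on the count. Without it 10 members were called, against 12.2% of all genes, and the 9 higher ones (5.75% of all genes were called higher) added Hspa5 (0.44 ± 0.09), Syvn1 (0.63 ± 0.17), Manf (0.52 ± 0.15), Hyou1 (0.37 ± 0.11) and Ddit3 (0.71 ± 0.22). Ddit3 was then the only PERK-ATF4 gene called higher in any comparison, from 5.03 ± 0.847 CPM in 5 PBS libraries to 8.21 ± 1.99 CPM, with no overlap and an adjusted p of 0.0335. With all PBS libraries its fold change was 0.60 ± 0.21 and its adjusted p 0.0614.

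Against MCF10A EV, the MCF10A/miR-122-labelled group showed the broadest difference in these genes, again across sets. Of the members, 13 fell: 8 of the 11 chaperones, 3 of the 4 isomerases, Xbp1 and Atf5. Of all genes tested, 8.71% fell. Herpud1 alone rose. In either direction 14 of 32 members were called, against 16.2% of all genes. The median log2 fold change was -0.44 for the chaperones, -0.32 for the isomerases, -0.05 for the degradation genes and -0.01 for the PERK-ATF4 genes, against -0.00 for all genes tested.

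Of the chaperones, Creld2 fell by 0.88 ± 0.24, Sdf2l1 by 0.80 ± 0.19, Manf by 0.67 ± 0.22, Hyou1 by 0.64 ± 0.19, Calr by 0.47 ± 0.09, Hspa5 by 0.44 ± 0.15, Dnajb11 by 0.42 ± 0.10 and Hsp90b1 by 0.31 ± 0.08. The smallest adjusted p among them was that of Calr, 0.000571, and the largest that of Hspa5, 0.0473. Sdf2l1 and Manf were called although the groups overlapped, and how often groups lay apart over all genes was not computed. The calls of Hspa5 and Manf were lost in 9 and 8 of 12 fits that left out 1 library. Canx (-0.10 ± 0.07) and Dnajc3 (-0.03 ± 0.09) lay near 0, and Dnajb9 had a positive value (0.15 ± 0.20), none of them past the threshold.

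Among the isomerases Pdia4 fell by 0.54 ± 0.10 (adjusted p = 0.000481), Pdia3 by 0.34 ± 0.09 (0.0119) and Pdia6 by 0.29 ± 0.09 (0.0286), and P4hb was at -0.03. Herpud1 rose by 0.82 ± 0.15 (adjusted p = 0.000612), while the other 6 degradation genes did not pass. Xbp1 fell by 0.51 ± 0.10 (adjusted p = 0.00144), and the sensors Atf6 (0.34 ± 0.12, adjusted p = 0.0564) and Ern1 (0.28 ± 0.16) did not pass. Atf5 fell by 0.79 ± 0.11 (adjusted p = 1.78e-05), the lowest adjusted p of the members in this comparison, and 6 of the 7 tested PERK-ATF4 genes did not pass.

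**Figure D5:**
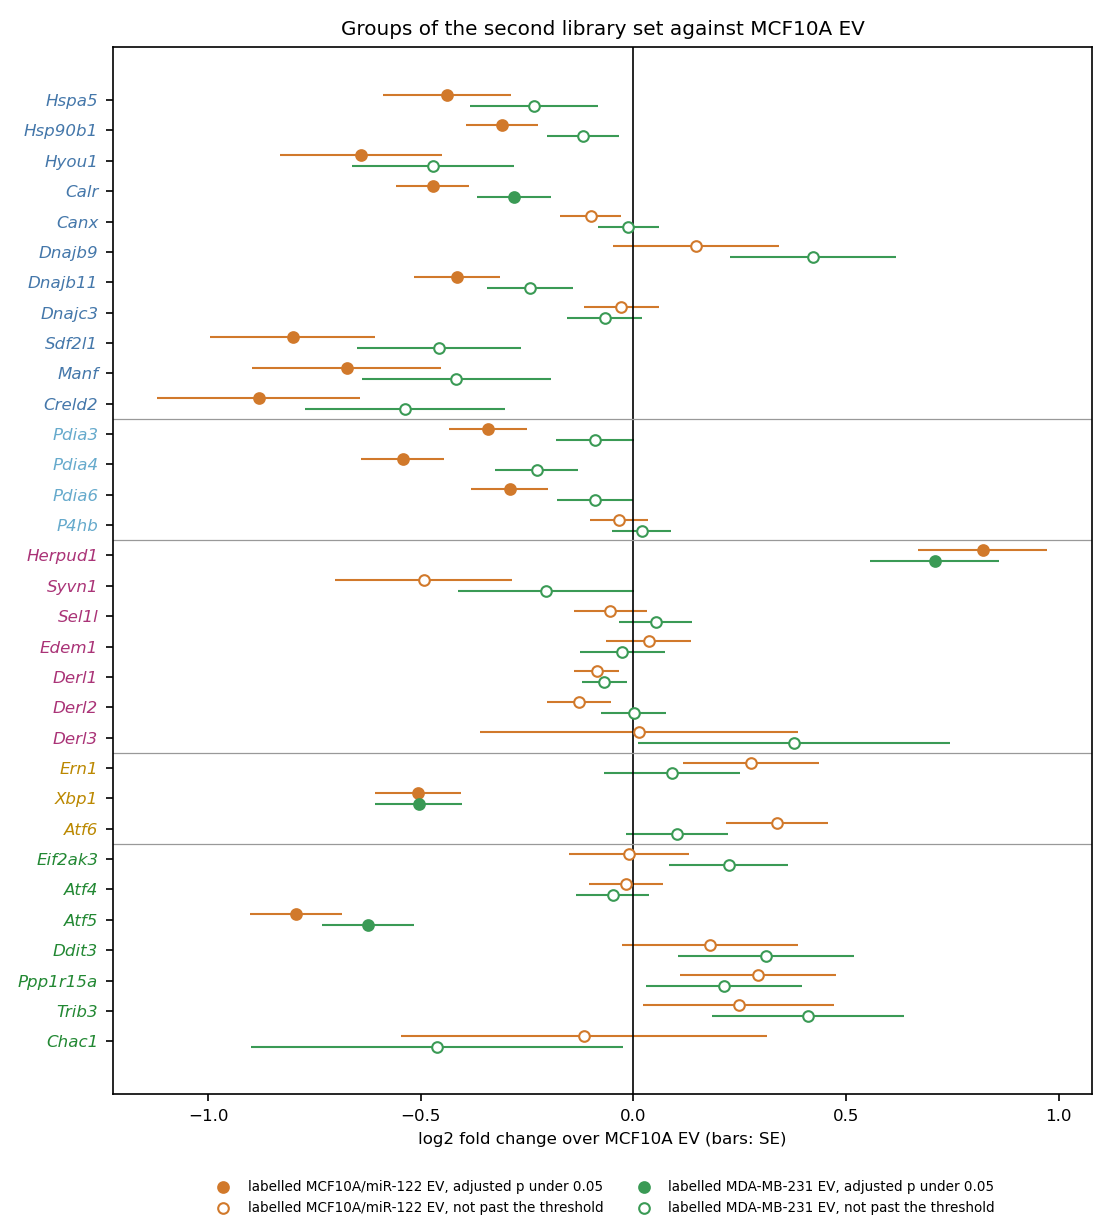
Log2 fold change over MCF10A EV, with its SE, for the 2 groups of the second set. Filled points have an adjusted p under 0.05. Most chaperone and isomerase points lie left of 0, with more filled for the MCF10A/miR-122-labelled group, and Herpud1 lies right of 0 in both.

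In the same comparison 9 of 11 macrophage markers rose, with their summed level at 326 to 760.3 CPM against 287 to 342.0 CPM in MCF10A EV, and their part in these values was not tested. Of 14 clock genes, 8 rose and 4 fell.

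The MDA-MB-231-labelled group against MCF10A EV gave 4 calls, against 7.68% of all genes. Atf5 fell by 0.62 ± 0.11 (adjusted p = 0.000594), Xbp1 by 0.50 ± 0.10 (0.00296) and Calr by 0.28 ± 0.09 (0.0462), and Herpud1 rose by 0.71 ± 0.15 (0.00476). Of the chaperones, 10 of 11 had a negative fold change and only Calr was called. No macrophage marker was called in this comparison, and 9 of 14 clock genes rose and 2 fell. Both comparisons use the same MCF10A EV libraries and are not independent of each other.

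The direct comparison of the groups of the second set, within that set, is the test of whether those groups differ. By edgeR none of the 32 members was called in the MDA-MB-231-labelled group against the MCF10A/miR-122-labelled one, where 0.254% of all genes were, and DESeq2 also called 0. At an unadjusted p under 0.05 stood 5 members, all with positive fold changes: Pdia4 (0.31 ± 0.10), Pdia3 (0.25 ± 0.09), Pdia6 (0.20 ± 0.09), Hsp90b1 (0.19 ± 0.08) and Calr (0.19 ± 0.09). At the same threshold stood 529 of all 13773 genes with a positive and 599 with a negative fold change. In this comparison 3 of 11 macrophage markers fell (Cd5l, Vsig4 and Emr1). The larger count of falls in one group than in the other against MCF10A EV is therefore not shown to be a difference between them.

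A pair of gene ratios was computed for genes chosen after their values were seen, and describes those genes alone. The log2 ratio of Herpud1 to Hspa5 CPM was -1.17 ± 0.40 in PBS, -1.31 ± 0.48 in MCF10A EV, 0.00 ± 0.30 in the MCF10A/miR-122-labelled group and -0.32 ± 0.14 in the MDA-MB-231-labelled one (mean ± SD, n = 6). That of Atf5 to Atf4 was 2.24 ± 0.23, 2.42 ± 0.18, 1.65 ± 0.20 and 1.85 ± 0.15 in that order. These are differences between groups within a gene pair and say nothing of which transcript is more abundant, since gene length was not taken into account.

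Other genes of the pathways were read from lists. None of them was called in MCF10A EV against PBS or between the groups of the second set. Against MCF10A EV, in the MCF10A/miR-122-labelled group, 2 of 24 further folding genes fell (Creld1, -0.48 ± 0.09, and Mlec, -0.51 ± 0.12), 3 of 17 translocation genes fell (Spcs2, -0.42 ± 0.12, Sec61g, -0.41 ± 0.14, and Sec61b, -0.31 ± 0.11), and 3 of 20 cytosolic tRNA synthetases fell (Tars, -0.57 ± 0.10, Wars, -0.35 ± 0.11, and Farsb, -0.31 ± 0.09). Of 22 further degradation genes 2 fell (Dnajb2, -0.55 ± 0.10, and Ubxn4, -0.34 ± 0.11) and Erlec1 rose (0.22 ± 0.08). Of 13 further IRE1 and ATF6 genes, Atf6b (-0.39 ± 0.13) and Creb3l3 (-0.31 ± 0.10), a liver factor cut like ATF6, fell. With 8.71% of all genes falling in this comparison, the folding and degradation counts were near that background. Against PBS, 3 of 17 translocation genes rose in the MDA-MB-231-labelled group (Tram1, Ssr4 and Sec11c) and 1 in the MCF10A/miR-122-labelled one (Ssr4). None of the 17 fell. Vcp of the degradation genes, Bak1 of the IRE1 and ATF6 genes and Tars fell in both groups. Creb3l3, Farsb and Mlec fell and Ero1l rose in the MCF10A/miR-122-labelled group, and Sil1 rose in the MDA-MB-231-labelled one. Of all genes, 17.9% were called in the former comparison and 11.7% in the latter.

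The further integrated stress response genes moved in both directions. Against MCF10A EV in the MCF10A/miR-122-labelled group, 6 of 34 rose and 2 fell, where 16.2% of all genes were called. Slc38a2, an amino acid transporter, rose by 1.21 ± 0.20, from 126 ± 35.5 to 292 ± 84.6 CPM. Ppp1r15b, the constitutive partner of the eIF2alpha phosphatase, rose by 0.49 ± 0.08. Slc7a11, the cystine transporter and a known ATF4 target, fell by 0.88 ± 0.11, from 6.30 ± 0.647 to 3.43 ± 0.242 CPM. Against PBS the same group had 7 of 34 higher and 1 lower, where 17.9% of all genes were called, with Cebpb, a partner factor of ATF4, at 1.48 ± 0.25 and Slc7a11 at -1.02 ± 0.11.

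In the MDA-MB-231-labelled group against PBS, 4 of 34 rose and 1 fell, near the 11.7% of all genes called. Slc38a2 (1.01 ± 0.20), Cebpb (0.82 ± 0.25) and Gpt2 (0.49 ± 0.15), an alanine transaminase, were higher, and Slc7a11 (-1.01 ± 0.11) was lower. Slc7a11 and Atf5 were thus lower in both groups of the second set, and Slc38a2 and Cebpb higher, while Atf4 differed in none. Against PBS, 3 of 13 cytosolic heat shock genes (Hspa1a, Hspa1b and Dnajb1) rose in both of these groups. Of all genes, 17.9% were called for the MCF10A/miR-122-labelled group and 11.7% for the MDA-MB-231-labelled one. In MCF10A EV against PBS 0 of the 13 were called. Their median log2 fold change there was 0.52, above the 0.28 and 0.38 of these groups, so higher values were not particular to the second set. Hspa1a and Hspa1b are near-identical copies, and their counts are uncertain for that reason.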

How the data were processed

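Liver RNA of 24 libraries was measured by mRNA sequencing with a stranded Kapa kit after TRIZOL extraction, as the labels' protocols state. The authors deposited raw counts per gene symbol. The submitters' processing notes name bcl2fastq 2.18.0.12, TopHat2 and mm9. The tool, annotation and strand setting that assigned reads to genes: not given in the sources used here. The 27 rows that share 11 symbols (0.0744% of counts) were left out.

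Differences came from edgeR 4.0.16 (quasi-likelihood test, two-sided) in R 4.3.3. All 24 libraries shared 1 fit, after filterByExpr and TMM scaling. Benjamini-Hochberg adjustment ran over 13773 genes. The common biological coefficient of variation was 16.8%. The script was tested on simulated data. Groups follow the treatment label. No 2 libraries were identical (0 pairs).

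Alternatives were RLE scaling, DESeq2 1.42.0, no filter, a mean of at least 100 counts, only the groups compared, a replicate block, and leaving out each library. Members and lists were chosen with earlier results of these data known. All members are named. Group values are given for those called in any comparison, and for others of their arm. From each other pathway list up to 4 called genes with the smallest p could be named per comparison, and those printed were chosen among these after their values were seen. Promoters are RefSeq's, in GRCm38.p6. GENCODE M21, in a build other than that of the counts, served for names and overlaps only.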

Additional observations from a re-analysis of the deposited data

Results flagged for a closer look

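In 23 of 132 tests of a gene in a group of 6 libraries, the highest or lowest library lay apart from the others by more than Dixon's 95% critical value for the group's range. Chance alone flags about 1 in 20 such groups, and genes of 1 library are not independent.

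PBS replicate 5 accounted for 8, in each case as the highest library: Hspa5 at 1018 CPM (others 413.0 to 515), Hyou1 at 260.9 (91.5 to 107.8), Dnajb11 at 111.2 (68.9 to 76.5), Manf at 170.2 (56.5 to 65.6), Creld2 at 72.9 (21.7 to 26.4), Syvn1 at 157.8 (60.3 to 73.1), Edem1 at 235.9 (150.5 to 179.8) and Eif2ak3 at 14 (9.89 to 11.3). These are 5 chaperones, 2 degradation genes and PERK.

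Replicate 2 of the MDA-MB-231-labelled group was highest for 5 genes: Hsp90b1 at 900.2 CPM (others 745.8 to 796.0), Sdf2l1 at 31.9 (21.9 to 24.7), Pdia3 at 526.7 (414.4 to 453.5), P4hb at 1394 (1193.6 to 1259) and Derl3 at 2.38 (0.636 to 1.10). Replicate 6 of that group was highest for Herpud1 at 666.5 CPM (455.5 to 526.0) and Ppp1r15a at 24.4 (12.7 to 15.4).

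Replicate 4 of the MCF10A/miR-122-labelled group was highest for Pdia3 at 455.3 CPM (348 to 378.5), P4hb at 1457 (1120.0 to 1227) and Xbp1 at 202.9 (142.6 to 164.8). In that group, replicate 3 was highest for Ppp1r15a at 25.8 CPM (12.7 to 16.9) and replicate 5 lowest for Eif2ak3 at 7.39 (11.1 to 12.8). MCF10A EV replicate 5 was highest for Sdf2l1 at 48.4 CPM (27.4 to 34.4) and lowest for Eif2ak3 at 7.30 (11.5 to 13.0). PBS replicate 6 was highest for Chac1 at 5.91 CPM (0.914 to 1.95).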

How the results depend on the processing

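No fold change of a called member reversed under any alternative run. In all 12 fits that left out 1 library, Herpud1 kept its call in each of its 4 comparisons, Atf5 in 3 of 4, Xbp1 in both of its comparisons, and Calr, Sdf2l1, Dnajb11, Creld2, Hsp90b1, Pdia3 and Pdia4 in the MCF10A/miR-122-labelled group against MCF10A EV. There, calls were lost without some library for Hspa5 (9 of 12 fits), Manf (8), Pdia6 (7) and Hyou1 (2). Calr in MCF10A EV against PBS lost its call in 10 of 12 fits. In the MDA-MB-231-labelled group, calls were lost for P4hb (10), Derl2 (9), Dnajb9 (7) and Atf5 (2) against PBS and for Calr (10) against MCF10A EV, and in the MCF10A/miR-122-labelled group for Pdia4 (5) against PBS.

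The number of members called ranged, over these fits, from 0 to 11 for MCF10A EV against PBS (11 without PBS replicate 5), from 2 to 5 for the MCF10A/miR-122-labelled group against PBS (5 without its replicate 4), from 1 to 10 for the MDA-MB-231-labelled one against PBS (10 without PBS replicate 5, 1 without PBS replicate 1), from 10 to 16 and from 3 to 4 against MCF10A EV, and stayed at 0 between the groups of the second set. For MCF10A EV against PBS the count was 0 with no filter and 0 with only the groups compared. For the MCF10A/miR-122-labelled group against PBS it was 5 with DESeq2. For the MDA-MB-231-labelled one it was 3 with no filter against PBS, and 7 with only the groups compared against MCF10A EV. Counts over all genes moved from 147 to 400 (DESeq2) or 27 (only the groups compared) for MCF10A EV against PBS, and from 35 to 99 (DESeq2), 20 (stricter filter) or 23 (only the groups compared) between the groups of the second set. The cause was not tested.

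Groups share replicate numbers, but the numbers do not pair the libraries: same-numbered libraries' deviations correlated at -0.51 to 0.48, and 1 to 3 of 6 per comparison correlated best with their own number. With the replicate block the members called in the MDA-MB-231-labelled group against PBS were 3 in place of 5, without P4hb and Dnajb9, and 13 in place of 14 for the MCF10A/miR-122-labelled one against MCF10A EV. Asns, Derl3 and Chac1 are limited by depth.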
